A study of Canis lupus familiaris with 12 samples.

Results

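The genes described here are 5 members of the BCL2 family of apoptosis regulators, BCL2, BCL2L1, BCL2L2, MCL1 and BAX, taken as every probe whose accession is a dog RefSeq transcript of one of them. All 5 were found on the array, on 6 probes, among 832 genes that could be named by such an accession. BAX (NM_001003011) had 2 probes, and BCL2 (NM_001002949), BCL2L1 (NM_001003072), BCL2L2 (NM_001031635) and MCL1 (NM_001003016) had 1 each. Messenger RNA was measured on 12 one-colour Agilent arrays in cultured canine melanoma cells, the line Mi/CMM1 established from an oral tumour, after exposure to piroxicam, carprofen or robenacoxib, which are nonsteroidal anti-inflammatory drugs that inhibit cyclooxygenases. Untreated cells were the control, and each of the 4 groups had 3 arrays. The control label names no vehicle. Each drug was added at its half-maximal inhibitory concentration, so the concentrations differed. Sample labels put piroxicam at 116 µM and carprofen at 779 µM for 6 h, while the treatment protocol gives piroxicam at 779 µM and carprofen at 116 µM for 24 h. For robenacoxib the sources give the same concentration, 156 µM. The conflict could not be resolved from them.

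Proteins of the BCL2 family decide whether the outer membrane of the mitochondrion is breached, the step that releases cytochrome c and starts the caspases. BCL2, BCL2L1 (BCL-XL), BCL2L2 (BCL-W) and MCL1 hold the membrane closed by binding their death-promoting relatives, whereas BAX, once activated, forms the pore. MCL1 protein turns over quickly, and BCL2 is a transcriptional target of the melanocyte factor MITF. All of this is background from other work, mostly in human and mouse cells, and these arrays measured RNA and not protein.

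Levels are given as log2 of the processed signal relative to the 75th percentile of the same array, and changes as differences of these values with the standard error (SE) from limma. The p-values of limma were adjusted over the 31993 probes tested by the Benjamini-Hochberg method, with a threshold of 0.05. A level cannot be compared between probes, so signals describe probes and do not rank the genes. All 3 controls shared slide 1 with carprofen 1, the other two carprofen arrays shared slide 2 with piroxicam 1 and 2, and on slide 3 were piroxicam 3 and the robenacoxib arrays. No slide thus joined control to piroxicam or robenacoxib, and once slide enters the fit as a block, carprofen 1 is the single link to control. Spike-in transcripts added at labelling, used as the scale in place of the 75th percentile, raised every change against control by 0.17 (piroxicam), 0.34 (carprofen) or 0.30 (robenacoxib), so a rise or fall below is relative to the array as a whole. Across probes, replicate arrays had correlations of 0.995 to 0.998. The labels do not say how the replicate cultures were kept apart, so the p-values measure the spread between these arrays, which may be technical. Of the melanocyte markers, MITF was well above background on 12 of 12 arrays and MC1R on 8, whereas TYR and KIT were not well above background on all arrays of any group. Probes for CD4, CD8A, VWF and 4 fibroblast genes were also well above background on all 12 arrays, so these probes do not separate melanocytes from other cells here.

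On all 12 arrays the signal of each of the 6 probes was well above background, and none was saturated on any (0 arrays). The processed signal of MCL1 lay between 12889 and 17701, and that of BCL2L2 between 357 and 596. The BCL2L1 probe had a signal of 81.1 to 119, between 2.85 and 8.77 times the lowest signal counted as well above background on the same array. Its SE was 0.15 per comparison, against 0.035 to 0.040 for the probes on which the other members were read.

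BCL2L2, an inhibitor of apoptosis, was clearly lower with piroxicam. It stood at -2.68, -2.65 and -2.72 on the piroxicam arrays, -2.04, -2.06 and -2.02 with carprofen, -2.22, -2.31 and -2.31 with robenacoxib, and -2.20, -2.21 and -2.11 in control. Every piroxicam array was below every other array, and no 2 of the 4 groups overlapped. With piroxicam the level fell by 0.51 on the log2 scale (SE 0.04, 1.42-fold lower than control, adjusted p = 2.7e-05, n = 3 against 3), a larger absolute change than that of 93.2% of tested probes. The call held in the fit with that slide term (-0.49, SE 0.07, adjusted p = 0.0158) and with scaling to the spiked-in transcripts (-0.33, adjusted p = 0.000132). Bulk RNA cannot tell fewer transcripts per cell from a different mixture of cells. Of the 4 tested fibroblast markers 1 was higher (PDGFRB, 0.50, adjusted p = 0.024) and 2 lower with piroxicam (DCN, -0.42, adjusted p = 0.0174, and COL1A2, -0.10, adjusted p = 0.0414), and none was called in the block fit (0). With carprofen 2 were lower, COL1A1 (-0.19, adjusted p = 0.00156) and COL1A2 (-0.16, adjusted p = 0.00394). With robenacoxib 2 were lower, DCN (-0.35, adjusted p = 0.0448) and COL1A1 (-0.12, adjusted p = 0.019). The block fit kept COL1A1 with carprofen (-0.14, adjusted p = 0.0464) and none of the other calls. The leukocyte marker CD8A was higher in that fit with piroxicam (1.72, adjusted p = 0.0439) and with carprofen (adjusted p = 0.049). Without slide its changes were 0.02 and -0.10, which did not pass. MITF was lower with carprofen (-0.13, adjusted p = 0.00797). In the block fit that was -0.10 (adjusted p = 0.102). It was at 0.00 with piroxicam and 0.09 with robenacoxib, which did not pass. MC1R differed by -1.39 with piroxicam (SE 0.47, adjusted p = 0.0523), 0.43 with carprofen and -0.20 with robenacoxib, and did not pass. With carprofen against piroxicam MC1R was higher (1.82, adjusted p = 0.0125) and MITF lower (-0.13, adjusted p = 0.00638). The part of these markers in the members' values was not tested. With carprofen BCL2L2 rose by 0.13 (SE 0.04, 1.1-fold, adjusted p = 0.0206), a larger absolute change than that of 50.4% of tested probes. The call ended with slide as a block (0.13, SE 0.05, adjusted p = 0.134) and without control 1 (0.12), control 2 (0.11) or carprofen 3 (0.12). It was also lost with normexp and 75th-percentile scaling (0.15, adjusted p = 0.0581). With robenacoxib the difference of -0.10 (SE 0.04) did not pass (adjusted p = 0.0718), except without robenacoxib 1 (-0.13, adjusted p = 0.0399) and with quantile normalization (-0.11, adjusted p = 0.0378), and it turned to 0.20 (adjusted p = 0.000679) against the spiked-in transcripts. From high to low the order was carprofen, control, robenacoxib, piroxicam, and the neighbours control and robenacoxib did not differ in the test.

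**Figure D1:**
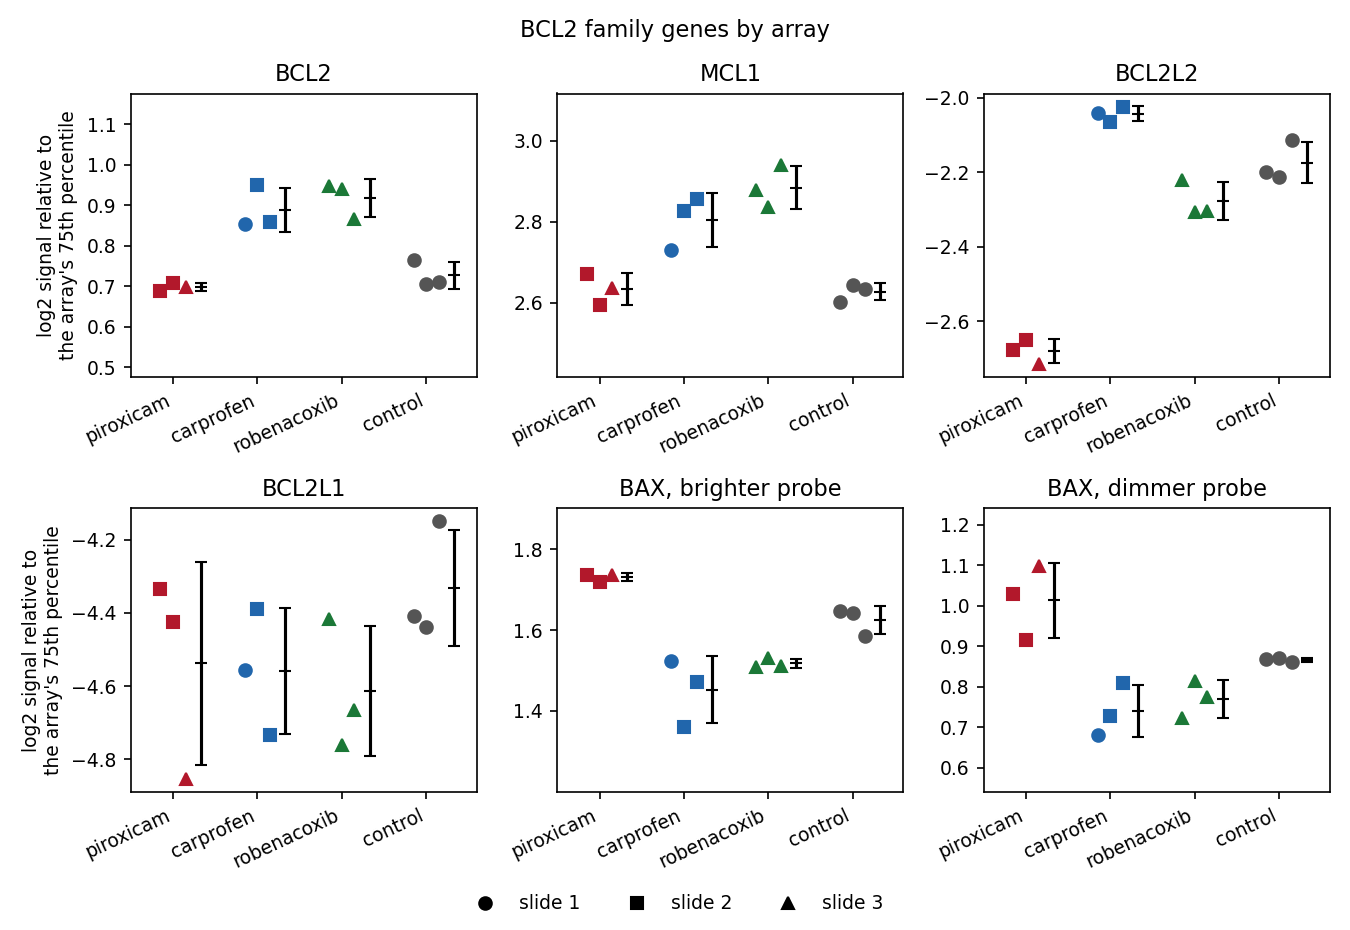
Level of each member probe (log2, relative to the 75th percentile of its array), with 1 point per array (shape gives the slide) and the group mean ± SD beside the points; each panel has its own vertical range. The 3 piroxicam arrays of BCL2L2 lie between -2.72 and -2.65, below all 9 others, while BCL2 and MCL1 are higher with carprofen and robenacoxib than in control.

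BCL2, the founding antiapoptotic member, was higher with carprofen and robenacoxib and showed little difference with piroxicam. Its values were 0.69, 0.71 and 0.70 with piroxicam, 0.85, 0.95 and 0.86 with carprofen, 0.95, 0.94 and 0.87 with robenacoxib, and 0.77, 0.71 and 0.71 in control. The carprofen and robenacoxib arrays lay above all piroxicam and control arrays, which overlapped each other. Robenacoxib raised it by 0.19 (SE 0.04, 1.14-fold, adjusted p = 0.00494) and carprofen by 0.16 (SE 0.04, 1.12-fold, adjusted p = 0.00715). These absolute changes were larger than those of 72.9% and 59.2% of tested probes. Neither call survived the slide term, where the estimates were 0.14 (SE 0.09, adjusted p = 0.494) and 0.13 (SE 0.05, adjusted p = 0.143). The piroxicam difference was -0.03 with a 95% interval of -0.11 to 0.05 (adjusted p = 0.573), and against the spiked-in transcripts it was 0.15 (adjusted p = 0.0251).

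MCL1, a short-lived survival factor, followed the same order of groups as BCL2 at the upper end. It was at 2.67, 2.59 and 2.64 on the piroxicam arrays, 2.73, 2.83 and 2.86 with carprofen, 2.88, 2.84 and 2.94 with robenacoxib, and 2.60, 2.64 and 2.63 in control. Again all carprofen and robenacoxib arrays exceeded all piroxicam and control arrays. The rise was 0.26 with robenacoxib (SE 0.04, 1.2-fold, adjusted p = 0.00215) and 0.18 with carprofen (SE 0.04, 1.13-fold, adjusted p = 0.00828). The absolute changes of 82.5% and 63.8% of tested probes were smaller. In the block fit these became 0.14 (SE 0.08, adjusted p = 0.46) and 0.10 (SE 0.05, adjusted p = 0.201), and neither passed. Carprofen 1, the drug array on the controls' slide, had the lowest MCL1 of its group, although it was still above the 3 controls. Piroxicam differed from control by 0.01 (95% interval -0.08 to 0.10, adjusted p = 0.909). That difference was -0.11 in the block fit (SE 0.07, adjusted p = 0.404). Against the spiked-in transcripts it was 0.18 and passed (adjusted p = 0.0197).

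BCL2L1, the antiapoptotic BCL-XL, showed no difference that exceeded its spread. The piroxicam arrays gave -4.33, -4.43 and -4.85, carprofen -4.56, -4.39 and -4.73, robenacoxib -4.42, -4.76 and -4.67, and control -4.41, -4.44 and -4.15. All 4 groups overlapped. Differences from control were -0.21 (piroxicam), -0.23 (carprofen) and -0.28 (robenacoxib), with adjusted p of 0.353, 0.301 and 0.232. The 95% interval for piroxicam ran from -0.55 to 0.14, so changes as large as that of BCL2L2 lie within it. With carprofen the authors' deposited values gave -0.31 (adjusted p = 0.0283) and normexp background correction with quantile normalization -0.22 (adjusted p = 0.025), both of which passed.

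BAX, which forms the mitochondrial pore, was lower with carprofen than in control. The brighter of its probes read 1.74, 1.72 and 1.74 with piroxicam, 1.52, 1.36 and 1.47 with carprofen, 1.51, 1.53 and 1.51 with robenacoxib, and 1.65, 1.64 and 1.58 in control. Piroxicam arrays were all above control, and carprofen and robenacoxib arrays all below it. Carprofen lowered it by 0.17 (SE 0.04, 1.13-fold lower, adjusted p = 0.00819), a larger absolute change than that of 62.3% of tested probes. The differences with piroxicam (0.11, SE 0.04, adjusted p = 0.0705) and robenacoxib (-0.11, SE 0.04, adjusted p = 0.079) did not pass. The carprofen call ended once slide was a block (-0.10, adjusted p = 0.197), with normexp and quantile normalization (-0.13, adjusted p = 0.12) and in the authors' deposited values (-0.13, adjusted p = 0.134). Without carprofen 1 or carprofen 2, which enter only through the shared spread, BAX passed with piroxicam (adjusted p = 0.0394 and 0.0182) and with robenacoxib (adjusted p = 0.0442 and 0.0217). Against the spiked-in transcripts BAX was higher with each drug (0.28 for piroxicam, 0.17 for carprofen, 0.19 for robenacoxib), when the median probe changed by 0.15, 0.32 and 0.27.

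The dimmer BAX probe gave the same directions and correlated at 0.85 with the brighter one over the 12 arrays. It read 1.03, 0.92 and 1.10 with piroxicam, 0.68, 0.73 and 0.81 with carprofen, 0.72, 0.82 and 0.77 with robenacoxib, and 0.87, 0.87 and 0.86 in control. Its changes against control were 0.15 (SE 0.05, adjusted p = 0.053) with piroxicam, -0.13 (SE 0.05, adjusted p = 0.0804) with carprofen and -0.10 (SE 0.05, adjusted p = 0.207) with robenacoxib. None of the 3 passed on this probe, so the carprofen call rests on the brighter probe. The mean of both probes passed with piroxicam (0.13, adjusted p = 0.024). In the block fit the probes diverged in size, at 0.21 and 0.02 with piroxicam and at -0.01 and -0.31 with robenacoxib.

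Counted together, 4 of the 5 members differed among the groups in limma's F-test over the 3 drugs, all but BCL2L1, where 48% of all tested probes did. Against control, 1 member fell and 0 rose with piroxicam, in a comparison that called 28% of probes, 16.1% lower and 11.9% higher. At an unadjusted p below 0.05, 1 member was higher there, BAX. With carprofen 3 rose and 1 fell, where 32.8% of probes were called, 13.3% higher and 19.5% lower. With robenacoxib 2 rose and 0 fell, where 22.2% were called, 9.57% higher and 12.6% lower. The unadjusted p was below 0.05 for 2 lower members in that comparison, BCL2L2 and BAX. The median absolute change of the members was 0.11, 0.17 and 0.19 for the 3 drugs, beside 0.12, 0.13 and 0.11 over all tested probes. Members whose arrays did not overlap control numbered 2, 4 and 4, in comparisons where 47.8%, 47.1% and 41.6% of probes did not overlap. The slide term left BCL2L2 with piroxicam as the 1 call against control, where 5.09% of probes were called, and limma then called 0 members with carprofen (16.4% of probes) or robenacoxib (1.41%). At an unadjusted p below 0.05 that fit had BAX (higher) and BCL2L2 (lower) with piroxicam. With carprofen it had 2 members, BCL2 and BCL2L2, and with robenacoxib 0. These counts read BAX on its brighter probe. In the same limma fit the dimmer probe had an unadjusted p of 0.014 with carprofen (-0.18) and 0.0133 with robenacoxib (-0.31). With piroxicam its p was 0.815 (0.02). On slide 1 alone, 1 carprofen array against 3 controls, limma called 0 members (also 0 unadjusted) and only 0.00313% of probes, so the count says little about the members.

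**Figure D2:**
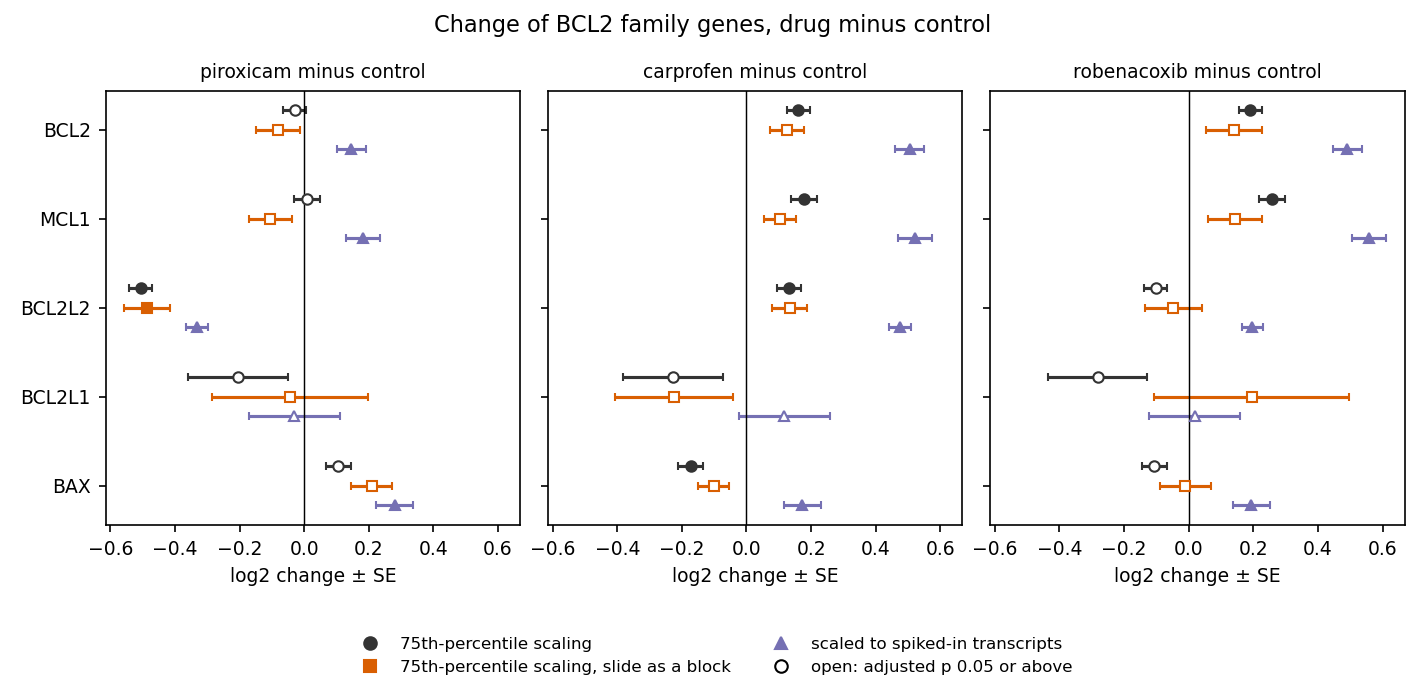
Log2 change of each member against control (± SE) for piroxicam, carprofen and robenacoxib, with 75th-percentile scaling, the same with slide as a block, and scaling to the spiked-in transcripts; filled points passed an adjusted p of 0.05. BCL2L2 with piroxicam is filled and negative under all 3, at -0.51, -0.49 and -0.33, while BAX with carprofen changes sign between -0.17 and 0.17.

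Piroxicam shared slide 2 with carprofen and slide 3 with robenacoxib, whereas carprofen and robenacoxib shared no slide. The concentrations differed, so these compare conditions and not compounds at a matched dose, and all 3 share the spread estimated from the same arrays. Carprofen over piroxicam gave 3 members higher and 1 lower, where 37.5% of probes were called, 18.6% higher and 18.9% lower. BCL2L2 was higher with carprofen than with piroxicam by 0.64 (SE 0.04, 1.56-fold, adjusted p = 2.26e-06), a larger absolute difference than that of 94.8% of probes. BCL2 was higher by 0.19 (SE 0.04, adjusted p = 0.00223) and MCL1 by 0.17 (SE 0.04, adjusted p = 0.00836), whereas BAX was lower by a log2 difference of -0.28 (SE 0.04, adjusted p = 0.000421). In absolute size they exceeded 61.8%, 57.6% and 75.7% of probes. All 4 calls held with slide as a block (0.62, 0.21, 0.21 and -0.31, the highest adjusted p being 0.0119), where 30.4% of probes were called. With normexp correction and quantile normalization BCL2 (0.17, adjusted p = 0.0773) and MCL1 (0.17, adjusted p = 0.0686) no longer passed, nor did they in the authors' deposited values (adjusted p = 0.0876 and 0.0815). The block estimates set carprofen 2 and 3 against piroxicam 1 and 2 on slide 2, and other arrays enter only through the spread. A fit to slide 2 alone is thus not a separate estimate. On slide 2 alone, with 2 arrays of each drug, only BCL2L2 of the members passed (0.62, adjusted p = 0.026), where 14.2% of probes did, and unadjusted the same 4 members were below 0.05.

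Robenacoxib over piroxicam likewise gave 3 members higher and 1 lower, where 27.1% of probes were called, 13.9% higher and 13.2% lower. BCL2L2 was higher with robenacoxib by 0.40 (SE 0.04, 1.32-fold, adjusted p = 5.87e-05), MCL1 by 0.25 (SE 0.04, adjusted p = 0.00162) and BCL2 by 0.22 (SE 0.04, adjusted p = 0.00155). BAX differed by -0.21 (SE 0.04, adjusted p = 0.00318), and its dimmer probe by -0.24 (adjusted p = 0.0058). These calls also held with slide as a block, at 0.44, 0.25, 0.22 and -0.22 with a highest adjusted p of 0.0274, where 18.3% of probes were called. The block estimate sets the 3 robenacoxib arrays against piroxicam 3, and a limma fit to slide 3 alone called 0 members and 0% of probes, with 4 members (3 higher, 1 lower) at an unadjusted p below 0.05, so the count of 0 says nothing about the members. Piroxicam 3 was below the robenacoxib arrays for BCL2L2, BCL2 and MCL1 and above them for both BAX probes. It also had the smallest share of spots well above background, 66.2%, against 70.3% to 80.0% on the other arrays. The block estimates thus rest on the array least like the others in that share. With scaling to the spiked-in transcripts BAX no longer passed against piroxicam, either with robenacoxib (-0.09, adjusted p = 0.27) or with carprofen (-0.11, adjusted p = 0.15), and the other 3 members did, in fits that called 35.5% of probes for robenacoxib and 45.9% for carprofen.

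Robenacoxib and carprofen differed in 1 member, which was lower, where 8.15% of probes were called, 4.42% higher and 3.74% lower. BCL2L2 was lower with robenacoxib than with carprofen by a log2 difference of -0.23 (SE 0.04, 1.18-fold lower, adjusted p = 0.0064), and the slide term gave -0.18 (SE 0.07, adjusted p = 0.326), when 0.253% of probes were called, and normexp with 75th-percentile scaling gave -0.20 (adjusted p = 0.11). For BCL2 the difference was 0.03 with a 95% interval of -0.05 to 0.11, for MCL1 0.08 (-0.01 to 0.17) and for BAX 0.07 (-0.02 to 0.15). These intervals come from the fit without slide and do not show that the drugs acted alike. In the block fit the interval for BAX was -0.06 to 0.24 on the brighter probe and -0.30 to 0.05 on the dimmer one.

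**Figure D3:**
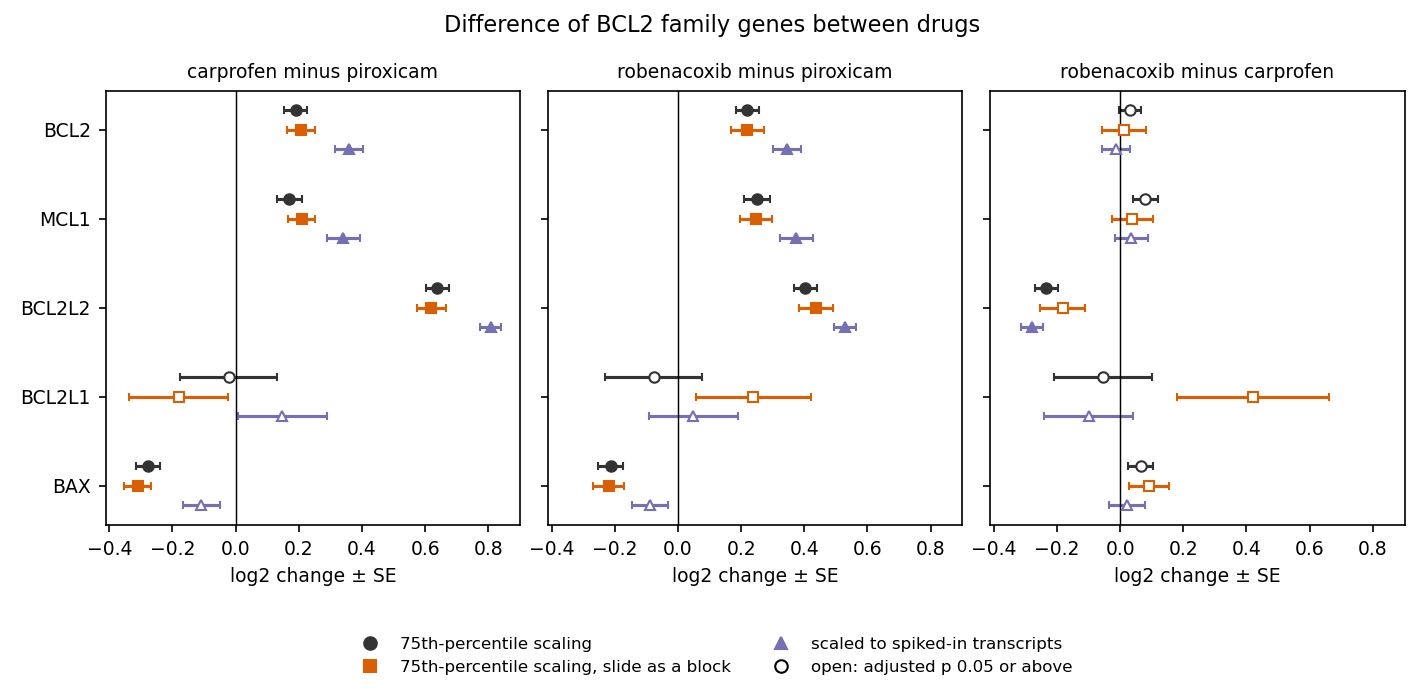
Log2 difference of each member between drugs (± SE), for carprofen minus piroxicam, robenacoxib minus piroxicam and robenacoxib minus carprofen, under the same 3 settings; filled points passed an adjusted p of 0.05. BCL2, MCL1 and BCL2L2 lie to the right of 0 and BAX to the left in both comparisons with piroxicam, and slide as a block moves them little.

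The difference between the log2 signals of 2 genes on one array does not depend on how that array is scaled, and shows unequal change between them. BAX minus BCL2 was 1.05, 1.01 and 1.04 with piroxicam, 0.67, 0.41 and 0.61 with carprofen, 0.56, 0.59 and 0.65 with robenacoxib, and 0.88, 0.94 and 0.87 in control. The groups of the 3 drugs each lay apart from control. Of single probes, 47.8%, 47.1% and 41.6% did so with piroxicam, carprofen and robenacoxib. How often other pairs of genes lie apart was not computed. The means of BAX minus BCL2 were 1.03 ± 0.02 with piroxicam, 0.56 ± 0.14 with carprofen and 0.60 ± 0.04 with robenacoxib, against 0.90 ± 0.03 in control (SD, n = 3 each). The shift from control was therefore 0.14, -0.33 and -0.30, each with p = 0.1 in the exact two-sided permutation test, the smallest p that 3 arrays against 3 allow. With the normexp correction and in the authors' deposited values the piroxicam shift was smaller (0.07 and 0.06), piroxicam overlapped control, and p was 0.4 in the exact test of each. The robenacoxib shift was then larger, at -0.46 and -0.44, and that of carprofen was -0.40 and -0.38. On slide 1, which held the controls, carprofen 1 was at 0.67 and below all 3 of them. The shifts were not adjusted for slide, and no slide held controls together with piroxicam or robenacoxib arrays. With slide as a block, the changes of BCL2, MCL1 and the brighter BAX probe were smaller with carprofen and robenacoxib. Those with piroxicam were larger in size, and that of MCL1 changed sign, from 0.01 to -0.11. The dimmer BAX probe went the other way. Its changes were 0.02, -0.18 and -0.31 with piroxicam, carprofen and robenacoxib in the block fit, and 0.15, -0.13 and -0.10 without slide.

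BAX relative to MCL1 shifted the same way, and the shifts were 0.10 (piroxicam), -0.35 (carprofen) and -0.36 (robenacoxib). Relative to BCL2L2 it shifted by 0.61 with piroxicam and -0.30 with carprofen, and each of these 5 groups lay apart from control with p = 0.1 in the exact test. The share of other gene pairs that lie apart was not computed, and among single probes it was 41.6% to 47.8%. With robenacoxib the shift relative to BCL2L2 was 0 (p = 0.9 in the exact test). With the normexp correction BAX relative to MCL1 overlapped control with piroxicam (0.08, p = 0.2 in the exact test). Relative to BCL2L1 the shifts were 0.31, 0.05 and 0.17, with all 3 drugs overlapping control. Piroxicam lay apart from control there with normexp (0.29) and in the authors' deposited values (0.36), and the robenacoxib shift turned to -0.14 with normexp. These 12 shifts share the BAX values and the 3 controls, and none can pass 0.05 by this test, adjusted or not.

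**Figure D4:**
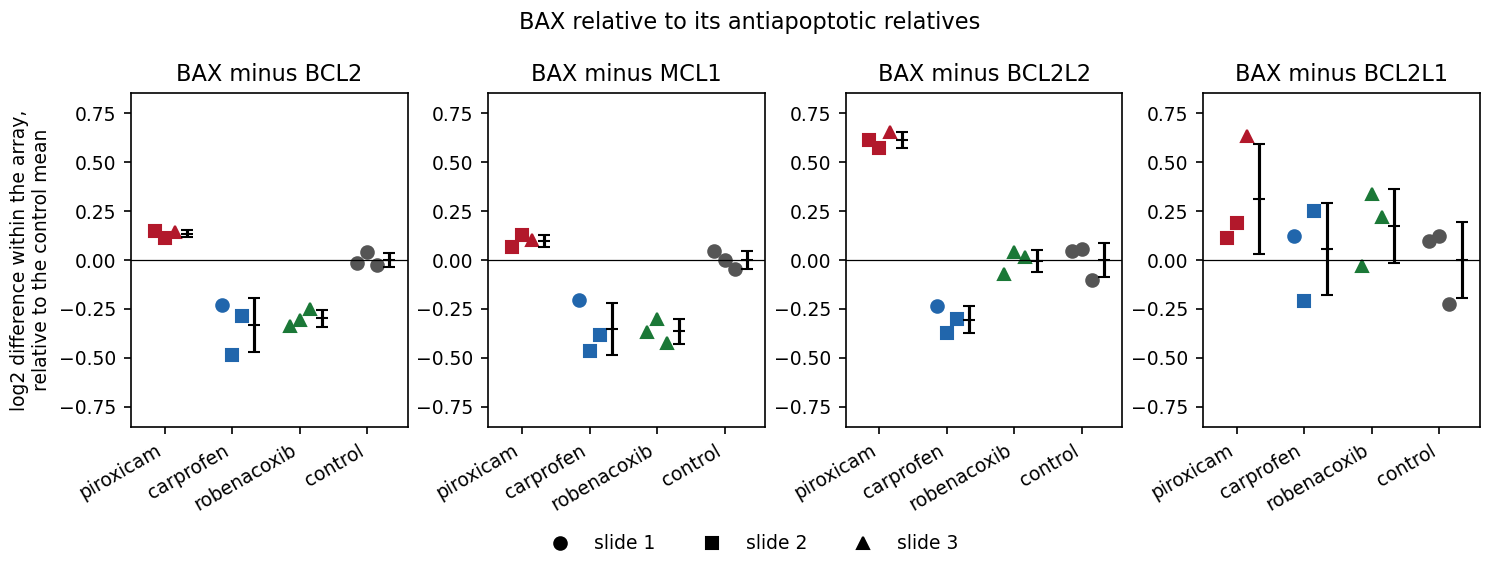
Log2 difference between BAX and each antiapoptotic member within an array, less the mean of the 3 controls, by group; points are arrays (shape gives the slide) and bars are the mean ± SD of 3. BAX minus BCL2 and BAX minus MCL1 are above control with piroxicam (0.14 and 0.10) and below it with carprofen (-0.33 and -0.35) and robenacoxib (-0.30 and -0.36).

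Few other genes of mitochondrial apoptosis could be named and tested. Of 17 further BCL2 family genes listed, 2 were tested, both of which promote death: BAD, which releases BAX and BAK1 from their inhibitors, and BAK1, the other pore former. BAD stood at 0.09 ± 0.07 with piroxicam, 0.07 ± 0.01 with carprofen, 0.04 ± 0.01 with robenacoxib and 0.17 ± 0.03 in control (SD, n = 3). It fell with robenacoxib, by 0.13 (SE 0.03, adjusted p = 0.0237), which did not hold in the block fit (-0.24, adjusted p = 0.115). BAK1 differed by -0.07, -0.11 and -0.11 with the 3 drugs and did not pass. Against the spiked-in transcripts BAD was at 0.10, 0.25 and 0.17 with piroxicam, carprofen and robenacoxib, and BAK1 at 0.10, 0.24 and 0.19. Unadjusted, 0 of these genes were below 0.05 with piroxicam and both were lower with carprofen and with robenacoxib. The list thus gave 0, 0 and 1 lower genes of 2, where 16.1%, 19.5% and 12.6% of all probes were called lower, and none higher (0), with medians of -0.07, -0.10 and -0.12 beside -0.02, -0.02 and -0.03 over all probes.

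Among 6 inhibitors of apoptosis proteins and antagonists of them, 4 were tested. DIABLO, which frees caspases from these inhibitors, was at 1.42 ± 0.02 with piroxicam, 1.35 ± 0.02 with carprofen, 1.40 ± 0.03 with robenacoxib and 1.62 ± 0.04 in control (SD, n = 3). It fell with all 3 drugs, by 0.20, 0.26 and 0.22 (SE 0.03 each, highest adjusted p = 0.000966), and held in the block fit with carprofen only (-0.24, adjusted p = 0.00971). Against the spiked-in transcripts DIABLO was at -0.02, 0.08 and 0.08. BIRC5, which encodes survivin, fell by 0.34 with carprofen (SE 0.04, adjusted p = 0.000382) and by 0.18 with robenacoxib (SE 0.04, adjusted p = 0.0129), but was at 0.01 and 0.12 against the spikes. The block fit kept the carprofen call of BIRC5 (-0.30, adjusted p = 0.0198) and not that with robenacoxib (-0.13, adjusted p = 0.605). BIRC3, a ubiquitin ligase that restrains caspase activation, rose by 0.10 with piroxicam and 0.10 with carprofen (adjusted p = 0.0444 and 0.0417), and neither held in the block fit (adjusted p = 0.22 and 0.106). In this list of 4 tested genes 1 rose and 1 fell with piroxicam (28% of all probes were called), 1 rose and 2 fell with carprofen (32.8%), and 0 rose and 2 fell with robenacoxib (22.2%), with medians of 0, -0.09 and -0.07.

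Of 12 apoptosome and caspase genes 4 were tested, and 1 rose with piroxicam, where 11.9% of all probes were called higher. CASP9, the initiator caspase of the mitochondrial route, changed by 0.15 (SE 0.04, adjusted p = 0.0149). In the block fit it was at 0.16 (adjusted p = 0.263). CASP8 differed by -0.16 with piroxicam (SE 0.05, adjusted p = 0.0517) and was below 0.05 only unadjusted. With carprofen and robenacoxib 0 of the 4 passed in limma, adjusted or not, and the medians were -0.02, 0.01 and 0.05 for the 3 drugs. TNF, the 1 tested gene of 10 death receptor and ligand genes, differed by 0.24, 0.23 and 0.10 and did not pass. Of 9 upstream regulators 2 were tested. MYC was at 1.09 ± 0.02 with piroxicam, 0.02 ± 0.03 with carprofen, 0.54 ± 0.05 with robenacoxib and 0.46 ± 0.03 in control (SD, n = 3). Its change was 0.63 with piroxicam (SE 0.03, adjusted p = 4.8e-06) and -0.44 with carprofen (SE 0.03, adjusted p = 2.11e-05). Both calls held in the block fit (0.66, adjusted p = 0.00565, and -0.43, adjusted p = 0.00232). Against the spiked-in transcripts they were 0.81 and -0.09. MDM2, the ubiquitin ligase of p53, rose by 0.12 with robenacoxib (SE 0.03, adjusted p = 0.0358), a call lost in the block fit (0.18, adjusted p = 0.341). Of these 2 genes 1 was higher and 0 lower with piroxicam (28% of all probes were called), 0 and 1 with carprofen (32.8%) and 1 and 0 with robenacoxib (22.2%), with medians of 0.28, -0.19 and 0.10. None of 6 mitochondrial pore genes had a named probe (0 tested).

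The named genes whose log2 values tracked each member best were picked by Pearson correlation over the 12 arrays among 607 other tested genes. The arrays fall into 4 groups and 3 slides that all genes share, so these values are a description. BCL2L2 was tracked by MX1 (r = 0.98), CD163 (0.97) and BRD2 (0.96). For BCL2 the closest were ABCC5 (0.96), CRYGS (0.90) and ATP4A (0.87), and for MCL1 ATP4A (0.90), ABCC5 (0.90) and BRCA1 (0.87), so ABCC5 and ATP4A appear for both. BAX was closest to PDPN (0.96), ARSA (0.96) and GALK1 (0.95), and BCL2L1 to PPP1CC (0.83), CNGA1 (0.78) and CCL17 (0.76). Once group means were removed, r with the closest gene was 0.51 for BCL2L2 (MX1), 0.58 for BCL2 (ABCC5) and 0.41 for MCL1 (ATP4A). It was 0.61 for BAX (PDPN) and 0.88 for BCL2L1 (PPP1CC). For MCL1 and ABCC5 it was -0.14. Among the members, BCL2 and MCL1 correlated at 0.85, and BAX correlated at -0.87 with BCL2, -0.77 with MCL1 and -0.80 with BCL2L2.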

How the data were processed

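Scanning with Feature Extraction 10.7.3.1 (protocol GE1_107_Sep09) gave the deposited spot intensity, from which background had been subtracted on each array; no step had set the arrays to a common scale, per the file headers. A further table deposited by the authors looks like log2 values. The submitters' processing notes name limma 3.24.15 for it, and how it corrected and normalized the signals is not stated there.

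Averages of log2 intensity over the spots of each of 43603 probes, control and outlier spots excluded, were set relative to the 75th percentile of their array in R 4.3.3 with limma 3.58.1. The 31993 probes that exceeded background in every array of 1 group or more were tested. All 12 arrays entered a single limma model with 8 residual degrees of freedom. Where a gene had several tested probes, the brightest on average stood for it. The number of arrays limits the precision. Named were all members, genes of 6 apoptosis lists called against control, up to 4 a list, and the 3 closest correlates of each member. The members and lists were chosen with earlier results of these data known.

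Gene names came from RefSeq for the dog assembly UU_Cfam_GSD_1.0, which covered 1313 probes (3.01%); other probes of these genes were not analysed here. Alternatives were normexp (offset 50, on median signals), quantile and spike-in scaling, the authors' values, 2 other filters, fits to fewer arrays, slide or replicate number as a block, and the mean of a gene's probes.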

Additional observations from a re-analysis of the deposited data

How the results depend on the processing

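The fall of BCL2L2 with piroxicam kept its call under every alternative run, and so did the count of 4 members in the F-test. The number of members called against control with piroxicam, 1 as reported, was 2 with quantile normalization, with only the arrays of the groups compared and with the mean of a gene's probes, 4 with spike-in scaling, and 1 to 2 when 1 array was left out, the second being BAX without carprofen 1 or carprofen 2. With carprofen the count of 4 fell to 0 with normexp and 75th-percentile scaling, and with slide as a block, and to 2 with only the groups compared; it was 3 to 4 with 1 array left out. With robenacoxib the count of 2 was 4 with spike-in scaling, 0 with slide as a block and 2 to 3 with 1 array left out. Carprofen over piroxicam, 4 as reported, gave 2 with either normexp setting and in the authors' values and 1 within slide 2. Fits within slide 1 (carprofen over control) and slide 3 (robenacoxib over piroxicam, 4 as reported) had 1 array in an arm, called almost no probe and gave 0 members, which shows nothing about these. Robenacoxib over carprofen, 1 as reported, gave 0 with normexp and 75th-percentile scaling, with only the groups compared and with slide as a block. Spike-in scaling turned BCL2 with piroxicam to 0.15, BAX with carprofen to 0.17, BAX with robenacoxib to 0.19 and BCL2L2 with robenacoxib to 0.20. The causes were not tested. BAX minus BCL2 ranged from 0.12 to 0.15 with piroxicam, -0.39 to -0.26 with carprofen and -0.32 to -0.28 with robenacoxib when 1 array was left out. The robenacoxib shift was -0.46 with normexp and -0.44 in the authors' values. With the replicate number as a replicate block the counts of called members were 1, 4 and 2 against control, as without it; same-numbered arrays correlated at -0.45 to 0.20 after group means were removed, so the numbers were not taken as pairs. The BCL2L1 probe was 2.85 to 8.77 times the lowest signal well above background.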
